A study of Homo sapiens with 6 samples.

Results

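The genes described here are the members of the human HOX clusters, taken as every gene row whose symbol is HOX followed by a cluster letter from A to D and a number. The rule found 38 members among 39739 gene rows, 11 in the *HOXA* cluster on chromosome 7, 9 in *HOXB* on chromosome 17, 9 in *HOXC* on chromosome 12 and 9 in *HOXD* on chromosome 2, on GRCh38. *HOXB1* was not analysed here. Expression was measured by RNA-seq in 6 libraries, 3 from HGC27-FN1 3′-UTR and 3 from HGC27-control cells. Both groups derive from HGC27, an established human gastric cancer line, grown in culture with no treatment given in the labels. The first group stably overexpresses the 3′ untranslated region of the fibronectin 1 mRNA after lentiviral infection and puromycin selection of a resistant pool, and the labels call the second only a control. The comparison asks how the overexpressed *FN1* 3′-UTR alters the transcriptome. Nothing in the labels says that the replicates were separate cultures, so p-values measure only the spread between these libraries, which may be technical. Because these are bulk samples, fewer cells expressing a gene and less RNA per cell cannot be told apart.

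HOX genes encode transcription factors that bind DNA through a homeodomain and give cells their position along the head-to-tail axis of the embryo. In each cluster all members are read from the same strand, and the number of a gene, its paralogue number, follows its place from the 3′ end (number 1, expressed earliest and most anteriorly) to the 5′ end (number 13, latest and most posteriorly). Polycomb complexes keep the clusters silent and Trithorax complexes keep them active, and adult cells and cancer lines often retain a fixed HOX pattern. The clusters also carry antisense RNAs, and microRNAs of the miR-10, miR-196 and miR-615 families that can pair with HOX 3′-UTRs.

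Part of the homeobox of 7 members named in the results is shown first. Each stretch was located by a fixed amino acid motif, WFQNRR, in the translated coding sequence. Likeness between members within the motif is thus partly set by this choice. The stretches are 30 bases, or 10 codons, around the recognition helix, read 5′ to 3′ from the GENCODE 29 coding sequences, and capitals mark bases that differ from the base most common at that position over the members in which the stretch was found. *HOXA3* (chr7:27108512-27108541), *HOXA11* (chr7:27182853-27182882), *HOXB6* (chr17:48596488-48596517), *HOXB7* (chr17:48607923-48607952) and *HOXB9* (chr17:48622936-48622965) lie on the reverse strand. *HOXC10* (chr12:53989354-53989383) and *HOXD10* (chr2:176119139-176119168) lie on the forward strand.
HOXA3: aagatctggttccagaaTcgCCgCatgaag
HOXA11: aaAatctggttTcagaacAggagAatgaag
HOXB6: aagatAtggttccagaaccgACgCatgaag
HOXB7: aagatTtggttTcagaaccggCgCatgaag
HOXB9: aaAatctggttTcagaaccggCggatgaaA
HOXC10: aaAatctggttTcaAaaTcgCagAatgaaA
HOXD10: aagatTtggttTcaAaaccgCCgAatgaaA
The motif, and with it the stretch, was found in 37 of the 38 members. A member differed from the most common letters at a median of 4 of the 30 bases. The lowest value was 0, in *HOXD4*, which is not shown, and the highest was 8. How reads with more than one placement were counted is not given in the sources used here.

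Mature microRNAs encoded in the clusters are shown because they can pair with HOX mRNAs, together with let-7i-5p, a microRNA that the study examined. They were taken from RefSeq on GRCh38.p14, with the seed (bases 2 to 8) in capitals.
hsa-let-7i-5p: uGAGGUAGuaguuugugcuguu
hsa-miR-10a-5p: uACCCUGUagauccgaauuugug
hsa-miR-196a-5p: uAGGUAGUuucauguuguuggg
hsa-miR-196b-5p: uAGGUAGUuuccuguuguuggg
hsa-miR-615-3p: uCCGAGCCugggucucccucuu
The precursor of miR-10a (chr17:48579904-48579926 for the mature form) lies in the *HOXB* cluster, that of miR-196b (chr7:27169528-27169549) in *HOXA*, that of miR-615 (chr12:54034010-54034031) in *HOXC*, and those of miR-196a in both *HOXC* (chr12:53991762-53991783) and *HOXB* (chr17:48632532-48632553). miR-196a-5p and miR-196b-5p share a seed. miR-10b, encoded in *HOXD*, is not shown.

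Expression was deposited as RPKM, the reads of a gene per kilobase of its exons and per 1000000 assigned reads. Levels can thus be compared between genes, with limits. The length counts all exons of a row, 1528 bases in *HOXB7* and 7456 in *HOXB3*, so exons not used in these cells would lower the value. Rows can also share exon bases. Such sharing covers 59.9% of *HOXC5* on the same strand and 62.5% of *HOXA7* on the opposite strand. How reads from shared bases were counted is not given in the sources used here. Reads were recovered by multiplying RPKM by gene length. The smallest product above 0 in each library was taken as 1 read, and this unit was then refined. On this unit 100% of values were whole reads within a tolerance of 0.05. The libraries then held from 16357085 to 37037532 assigned reads, which are inferred totals. A floor of 3 reads corresponds to 0.081 to 0.1834 per 1000000 reads, depending on the library, and covers counting error only. *FN1*, counted over the whole gene, had 0.777, 0.745 and 0.819 RPKM in HGC27-FN1 3′-UTR libraries and 0.543, 0.474 and 0.532 in control libraries, with no overlap (log2 fold change 0.52, adjusted p = 0.029 by limma). This row pools the 3′-UTR with the other exons. Markers are counted below as higher (rose) or lower at an adjusted p under 0.05 by limma. At that threshold 5.62% of all tested genes were higher and 7.36% lower. Of 10 epithelial markers the summed level was 3.99 to 4.42 RPKM in control and 20.0 to 29.1 RPKM in HGC27-FN1 3′-UTR libraries, and 6 of the 9 tested rose. Of 9 fibroblast markers the sum was 408 to 465 against 468 to 497 RPKM, and 5 rose. The sum of the gastric markers with a row (7 of 10) was 3.50 to 3.59 against 4.31 to 5.69 RPKM, with 1 of 4 tested higher (*CTSE*) and 1 lower (*GATA4*). The gastric mucin and trefoil genes *MUC5AC* and *TFF1* held 1 read each over all HGC27-FN1 3′-UTR libraries, and 2 and 0 reads over the control libraries. The mesothelial sum was 8.26 to 8.86 against 9.74 to 10.0 RPKM (2 of 5 tested rose), the endothelial sum 0.042 to 0.107 against 0.172 to 0.196 RPKM with *PECAM1* at 0 in all, and the blood sum 2.89 to 3.36 against 2.77 to 3.09 RPKM. The part of these shifts in the HOX values was not tested.

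HOX expression in HGC27 spanned all 4 clusters. The members together summed to 136.1 ± 0.893 RPKM in control and 138.8 ± 1.27 RPKM in HGC27-FN1 3′-UTR libraries (SD, n = 3 each). *HOXC* gave the most, with 51.4 ± 0.705 against 52.8 ± 0.0603 RPKM, followed by *HOXB* with 33.6 ± 0.442 against 33.1 ± 0.296, *HOXA* with 29.5 ± 0.266 against 31.1 ± 0.347, and *HOXD* with 21.6 ± 1.12 against 21.8 ± 0.744 (control first, SD, n = 3 each). The sums of *HOXA* were 29.8, 29.3 and 29.4 RPKM in control and 31.5, 30.9 and 31.0 in HGC27-FN1 3′-UTR libraries, and did not overlap, with a ratio of 1.06. Those of *HOXC* were 51.0, 51.0 and 52.2 RPKM in control and 52.7, 52.8 and 52.7 in HGC27-FN1 3′-UTR libraries, which did not overlap either, with a ratio of 1.03. The ratio was 0.986 for *HOXB* and 1.01 for *HOXD*, with overlapping sums. Only the *HOXA* ratio stayed above 1 in every alternative tried. That of *HOXC* was 0.988 without *HOXC10*, that of *HOXB* 1.01 with median-ratio scaling and 1.07 as a geometric mean, and that of *HOXD* 0.985 as a geometric mean. A sum over members has no test here.

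Each cluster was led by 1 gene of its 5′ or central part. *HOXC10*, a posterior gene used in lumbar and hindlimb patterning, had the highest level of all, at 21.6, 21.7 and 22.1 RPKM in control and 23.6, 24.2 and 22.8 RPKM in HGC27-FN1 3′-UTR libraries. The groups did not overlap, and the log2 fold change was 0.11 ± 0.03 (SE; adjusted p = 0.080 by limma). *HOXB7*, a central gene, had 15.7, 15.2 and 14.4 RPKM in control and 15.0, 15.7 and 14.6 RPKM in HGC27-FN1 3′-UTR libraries, which overlapped. *HOXA11*, which patterns limb and reproductive tract, had 9.04, 9.34 and 9.13 RPKM in control and 9.65, 9.51 and 9.84 RPKM in HGC27-FN1 3′-UTR libraries, with no overlap (log2 fold change 0.08, adjusted p = 0.20 by limma). *HOXD10*, another posterior limb gene, had 8.10, 9.12 and 8.73 RPKM in control and 8.72, 8.61 and 8.76 RPKM in HGC27-FN1 3′-UTR libraries, which overlapped. These 4 genes held 42.4%, 44.9%, 31.1% and 40.0% of the summed control RPKM of their clusters in that order.

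**Figure D1:**
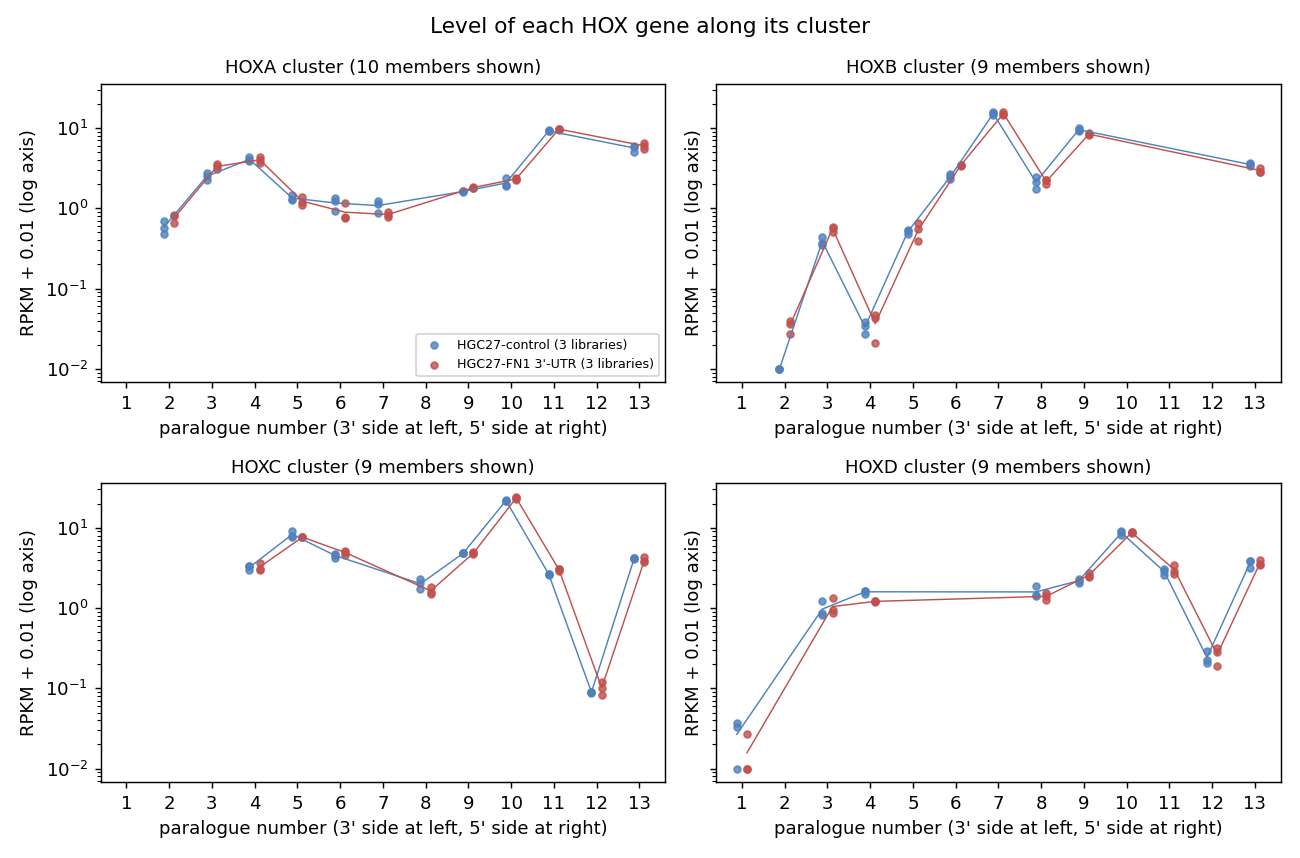
Level of each HOX gene (RPKM + 0.01, log axis) against its paralogue number in the 4 clusters for 37 of the members, with 1 point per library and lines through the group means, control in blue and FN1 3′-UTR in red. The profiles of the groups lie close together, with peaks at *HOXA11*, *HOXB7*, *HOXC10* and *HOXD10*, and *HOXB2*, *HOXB4*, *HOXC12* and *HOXD1* close to the floor.

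Levels differed by over 4-fold between some neighbouring genes. In *HOXA*, the control mean was 0.574 RPKM in *HOXA2*, 2.49 in *HOXA3* and 4.07 in *HOXA4*, between 1.07 and 2.05 RPKM from *HOXA5* to *HOXA10*, and 9.17 and 5.62 RPKM in *HOXA11* and *HOXA13*. Steps of more than 4-fold in the *HOXA* control means separated *HOXA2* from *HOXA3* (4.34-fold) and *HOXA10* from *HOXA11* (4.46-fold). On the low sides of these steps, *HOXA2* had 0.647, 0.7996 and 0.808 RPKM in HGC27-FN1 3′-UTR libraries and 0.565, 0.475 and 0.681 in control, and *HOXA10* had 2.36, 2.33 and 2.27 against 1.93, 1.86 and 2.37 RPKM. Both overlapped. *HOXA13* was at 5.00 to 6.44 RPKM over all libraries.

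Levels in the *HOXB* cluster were uneven. *HOXB2*, which acts in hindbrain patterning, had 0 reads in every control library and 1, 1 and 2 reads in HGC27-FN1 3′-UTR libraries, all under the 3-read floor, so no fold is given. *HOXB4*, known from blood stem cells, had 1 to 4 reads in each library. *HOXB3*, between them, had 57, 98 and 100 reads in control. Its row shares 7.94% of its exon bases with *HOXB4* and *HOXB6* on the same strand, and reads from those bases cannot be told apart. *HOXB5* was at 0.499 RPKM, *HOXB6* at 2.48, *HOXB7* at 15.1, *HOXB8* at 2.10, *HOXB9* at 9.52 and *HOXB13* at 3.51 RPKM in the control means. Neighbouring steps were 16.2-fold from *HOXB4* to *HOXB3*, 21.4-fold from *HOXB4* to *HOXB5*, 4.96-fold from *HOXB5* to *HOXB6*, 6.09-fold from *HOXB6* to *HOXB7*, 7.18-fold from *HOXB8* to *HOXB7* and 4.53-fold from *HOXB8* to *HOXB9*. The first 2 rest on the few reads of *HOXB4*. *HOXB5* had 0.539, 0.381 and 0.638 RPKM in HGC27-FN1 3′-UTR libraries and 0.527, 0.509 and 0.463 in control, which overlapped. *HOXB13*, a prostate and hindgut gene that lies apart from the rest of its cluster, had a level between those of *HOXB6* and *HOXB9*.

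In *HOXC*, the genes from *HOXC4* to *HOXC9* had control means of 1.99 to 8.25 RPKM, *HOXC10* stood 4.54-fold above *HOXC9* and 8.28-fold above *HOXC11* (2.63 RPKM), and *HOXC13*, a hair and nail gene, was at 4.15 RPKM. *HOXC12* between the last 2 had 5 to 10 reads per library, a control mean 33.0-fold below *HOXC11* and 52.0-fold below *HOXC13*. *HOXC9* had 4.92, 4.71 and 4.85 RPKM in HGC27-FN1 3′-UTR libraries and 4.85, 4.77 and 4.78 in control, and *HOXC13* had 4.34, 3.73 and 3.80 against 4.05, 4.21 and 4.19 RPKM. Neither separated the groups. In *HOXD*, *HOXD1* had 0 to 2 reads per library and 3 in all in control, too few for a fold. The genes from *HOXD3* to *HOXD9* were at 0.960 to 2.18 RPKM, *HOXD10* at 8.65, *HOXD11* at 2.83, *HOXD12* at 0.232 and *HOXD13*, the digit-patterning gene, at 3.59 RPKM. *HOXD12* was thus 12.2-fold below *HOXD11* and 15.4-fold below *HOXD13*. It held 4 to 14 reads per library. *HOXD11* had 3.39, 2.66 and 2.89 RPKM in HGC27-FN1 3′-UTR libraries and 2.59, 3.04 and 2.87 in control, and *HOXD13* had 3.96, 3.40 and 3.53 against 3.12, 3.80 and 3.85 RPKM, both with overlapping groups.

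The relation of level to position differed in value between clusters. The rank correlation of control level with paralogue number was 0.64 over the 11 genes of *HOXA*, 0.83 over the 9 of *HOXB*, -0.27 over the 9 of *HOXC* and 0.57 over the 9 of *HOXD*. In HGC27-FN1 3′-UTR cells the values were 0.64, 0.73, -0.30 and 0.58. Genes of 1 cluster share libraries and overlapping transcripts, so these are descriptions without a test. Over the clusters the median control level was 0.574 RPKM for the 11 members of paralogues 1 to 4, 1.99 RPKM for the 11 of paralogues 5 to 8 and 3.55 RPKM for the 16 of paralogues 9 to 13. Paralogues 9 to 13 gave 80.9% of the *HOXD* sum in control and 83.3% in HGC27-FN1 3′-UTR cells, 65.1% and 67.0% of *HOXC*, 62.6% and 63.4% of *HOXA*, and 38.8% and 34.2% of *HOXB*. The order of the 38 levels had a rank correlation of 0.99 between the group means.

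Between the groups, 34 of the 38 members passed the filter on low values (0.1 RPKM or more in at least 3 of the libraries) and were tested with limma on log2(RPKM + 0.1) among 23299 genes. A fold change on this scale understates the change of low genes. *HOXB2*, *HOXB4*, *HOXC12* and *HOXD1* were not tested. At a Benjamini-Hochberg adjusted p under 0.05, 4 of the 34 changed, beside 13.0% of all tested genes. *HOXB6* and *HOXA3* were upregulated (2 members, beside 5.62% of genes higher) and *HOXD4* and *HOXB9* were downregulated (2 members, beside 7.36% lower). The share of members called was near the background. All 4 called members were among the 27 with a mean RPKM of 1 or more, and 17.3% of genes at that level were called. Without adjustment, 10 members had a p under 0.05, 7 higher and 3 lower, beside 29.6% of genes. At an absolute log2 fold change above 1 with an unadjusted p under 0.05, limma called 0 of 34 members, beside 2.47% of genes.

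The changes were small for every tested member. Log2 fold changes ran from -0.37 to 0.45, with 23 above 0 and 11 below it, a median of 0.03 beside -0.04 over all tested genes, and a median size of 0.11 beside 0.16 over all and 0.12 over genes of a mean RPKM of 1 or more. In 24 members the size was under 0.2. The 95% interval lay within -1 and 1 for 34 of 34 members, beside 80.1% of all tested genes and 95.4% of those at a mean RPKM of 1 or more. Wide intervals belonged to low genes, such as -0.43 to 0.59 in *HOXD12*. The values of the groups did not overlap in 12 members, 8 higher and 4 lower, beside 36.0% of genes (14.3% higher and 21.7% lower). With 3 libraries against 3 an exact two-sided permutation test of a single gene cannot go below p = 0.1, and the 12 members had this value.

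**Figure D2:**
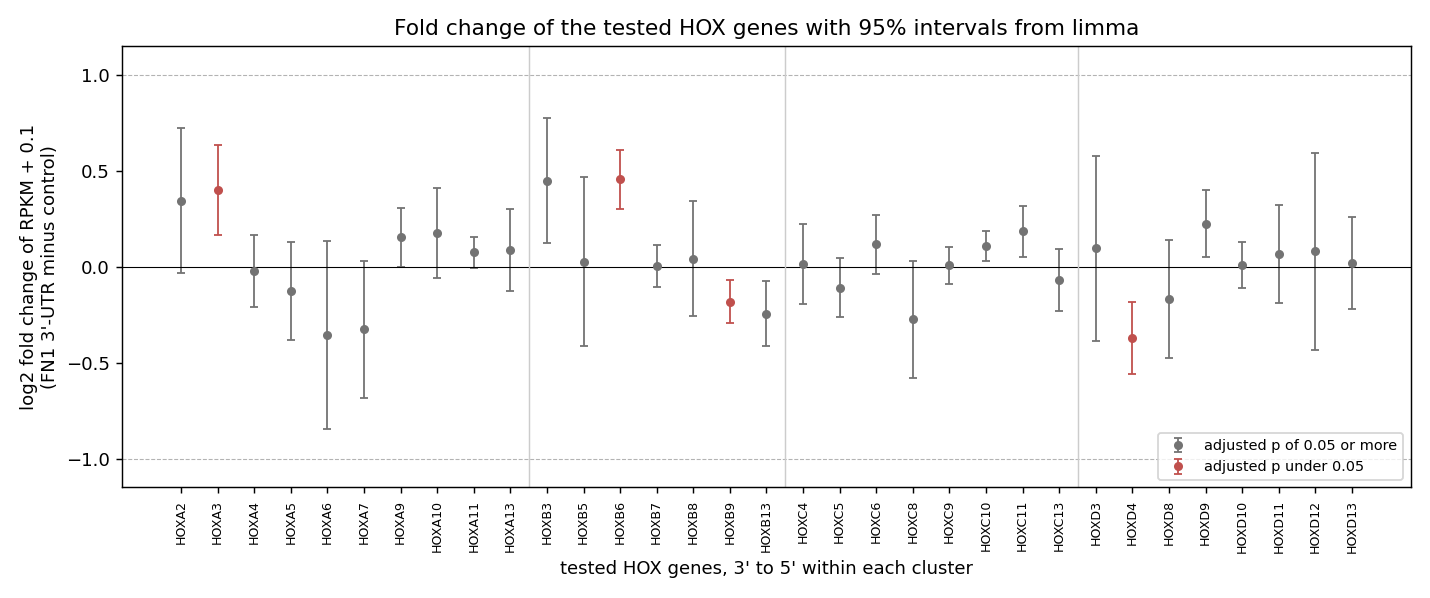
Log2 fold change of RPKM + 0.1 (FN1 3′-UTR minus control) for 33 of the tested HOX genes, ordered 3′ to 5′ within each cluster, with 95% intervals from limma and dashed lines at -1 and 1. The 4 genes in red had an adjusted p under 0.05, and all intervals stay between the dashed lines.

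*HOXB6*, a central *HOXB* gene at chr17:48595751-48604992 on the reverse strand, had the highest log2 fold change of the tested members. Its RPKM was 3.40, 3.40 and 3.48 in HGC27-FN1 3′-UTR libraries and 2.30, 2.64 and 2.49 in control libraries. Every HGC27-FN1 3′-UTR library was above every control library. The log2 fold change was 0.45 ± 0.06 (SE; adjusted p = 0.0094 by limma), a ratio of mean RPKM of 1.38, resting on 626 and 586 reads. *HOXB6* stayed called whichever single library was left out, with adjusted p from 0.024 to 0.038 by limma.

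The rows around *HOXB6* were examined because its exons share bases with others, 16.6% with *HOXB3* on the same strand and 16.3% with the antisense RNA *HOXB-AS3* on the other. *HOXB-AS3* had 3.07, 2.74 and 2.94 RPKM in HGC27-FN1 3′-UTR libraries and 1.97, 2.14 and 2.03 in control libraries, and was upregulated (log2 fold change 0.49, adjusted p = 0.0087 by limma). *HOXB3* had 0.582, 0.566 and 0.501 RPKM against 0.342, 0.427 and 0.362 in control, with no overlap. Its log2 fold change was 0.45 ± 0.13 (SE; adjusted p = 0.081 by limma). The kit was stranded, but the strand setting used in counting is not given in the sources used here, so reads of *HOXB6* and *HOXB-AS3* from shared bases cannot be told apart. *HOXB5* and *HOXB7*, the neighbours of *HOXB6* on either side, had log2 fold changes of 0.03 (95% interval -0.41 to 0.47) and 0.00 (95% interval -0.11 to 0.11).

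*HOXB9*, a thoracic-level gene of the 5′ side at chr17:48621159-48626356, was downregulated in the same cluster. Its RPKM was 8.34, 8.11 and 8.68 in HGC27-FN1 3′-UTR libraries and 9.16, 9.47 and 9.93 in control libraries. All 3 control libraries were higher, the log2 fold change was -0.18 ± 0.05 (SE) and the adjusted p of 0.0498 by limma was just inside the threshold. No exon base of *HOXB9* was shared with another row. *HOXB13*, the most 5′ member, had 3.19, 2.82 and 2.83 RPKM against 3.55, 3.66 and 3.32 in control, with no overlap. Its adjusted p of 0.071 by limma was outside the threshold at a log2 fold change of -0.24 ± 0.07 (SE). From 3′ to 5′, the *HOXB* fold changes had a rank correlation with paralogue number of -0.75 over 7 genes, with *HOXB3* and *HOXB6* positive and *HOXB9* and *HOXB13* negative. *HOXB3* and *HOXB6* share exons, so the points are not independent. The corresponding values were -0.22 in *HOXA* (11 genes), 0.19 in *HOXC* (8) and 0.10 in *HOXD* (8).

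*HOXA3*, an anterior gene needed for thymus and parathyroid development, lies at chr7:27106184-27152581 on the reverse strand. Its RPKM was 3.56, 3.03 and 3.33 in HGC27-FN1 3′-UTR libraries and 2.52, 2.22 and 2.73 in control libraries, and the groups did not overlap. The log2 fold change was 0.40 ± 0.10 (SE; adjusted p = 0.045 by limma). Its exons overlap antisense rows over 15.4% of their bases and same-strand rows over 9.24%. Among these, the antisense RNA *HOXA-AS2* was upregulated, with 1.27, 1.43 and 1.17 RPKM against 0.780, 0.995 and 0.900 in control (log2 fold change 0.49, adjusted p = 0.046 by limma). The antisense RNA *HOXA-AS3* had 0.686, 0.597 and 0.562 RPKM against 0.555, 0.783 and 0.697, which overlapped. *HOXA2* and *HOXA4* beside *HOXA3* had log2 fold changes of 0.34 (adjusted p = 0.20 by limma) and -0.02 (adjusted p = 0.88 by limma).

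*HOXD4*, the anterior *HOXD* gene at chr2:176151222-176153226 on the forward strand, had 1.21, 1.17 and 1.22 RPKM in HGC27-FN1 3′-UTR libraries and 1.47, 1.64 and 1.64 in control libraries. It was lower in every HGC27-FN1 3′-UTR library, with a log2 fold change of -0.37 ± 0.08 (SE; adjusted p = 0.029 by limma) from 123 and 211 reads. The row AC009336.19 covers 80.5% of its exon bases on the same strand and had 0.868, 0.767 and 0.642 RPKM against 0.788, 0.857 and 0.989 in control, which overlapped. AC009336.19 also shares bases with *HOXD3* (62.2% of its exon bases). *HOXD3* had 1.31, 0.923 and 0.869 RPKM against 0.808, 0.869 and 1.20. How reads were divided among these rows is not given in the sources used here.

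**Figure D3:**
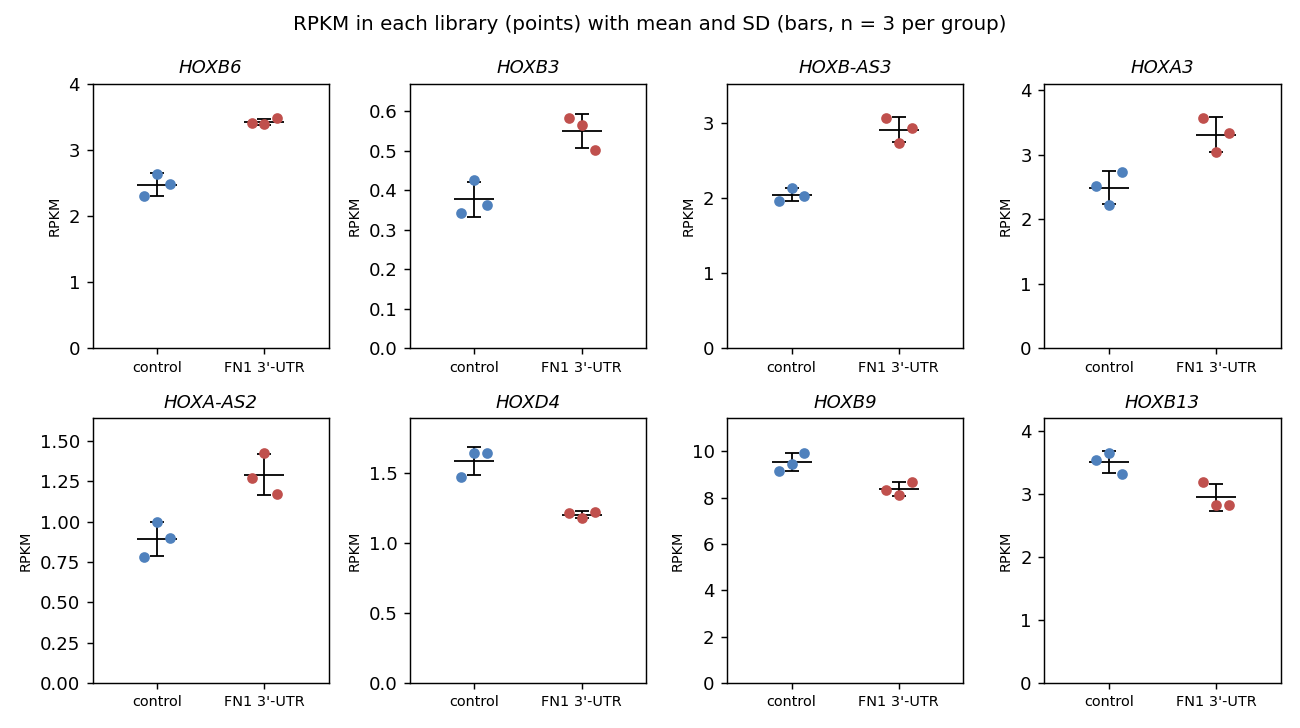
RPKM of the called HOX genes and of rows beside them in each library (points), with mean and SD (bars, n = 3 per group) on axes that start at 0. *HOXB6*, *HOXB-AS3*, *HOXA3* and *HOXA-AS2* are higher and *HOXD4* and *HOXB9* lower in every HGC27-FN1 3′-UTR library, and the other 2 panels show *HOXB3* and *HOXB13*, which did not pass the adjusted threshold.

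The adjusted p of *HOXA3*, *HOXD4* and *HOXB9* lay close to the threshold, and their calls were not kept with fewer libraries. Leaving out any 1 of the 6 libraries ended the calls of *HOXA3* (adjusted p 0.052 to 0.12 by limma) and *HOXB9* (adjusted p 0.061 to 0.14 by limma). The *HOXD4* call was kept only without control replicate 1 (adjusted p = 0.041 by limma) and was lost without any other library (up to 0.11). The log2 fold changes in these fits were 0.32 to 0.47 in *HOXA3*, -0.42 to -0.35 in *HOXD4* and -0.21 to -0.15 in *HOXB9*. Each fit keeps 2 libraries in the smaller group, and the calls over all genes went from 3025 to between 971 and 1880. When the 15 tested members that share over 10% of their exon bases with another row were left out, an alternative added once the values had been seen, *HOXB9* alone remained called among 19.

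Among the remaining tested members, the groups did not overlap in *HOXA9*, *HOXC11* and *HOXD9*, with log2 fold changes of 0.15, 0.18 and 0.22. Their adjusted p by limma was 0.17, 0.081 and 0.095. *HOXC11* had 3.09, 2.85 and 3.07 RPKM against 2.63, 2.66 and 2.60 in control. *HOXC5* was lower without overlap, at 7.62, 7.67 and 7.59 RPKM against 7.91, 7.77 and 9.06, where control replicate 3 alone stood apart (adjusted p = 0.31 by limma). *HOXA6* and *HOXA7*, central genes, had log2 fold changes of -0.36 and -0.33 with overlapping groups, and *HOXC8* of -0.27. No member had a log2 fold change above 0.5 in size. By position, the median log2 fold change was 0.10 over the 8 tested members of paralogues 1 to 4, -0.11 over the 11 of paralogues 5 to 8 and 0.08 over the 15 of paralogues 9 to 13, each holding at most 1 called gene per direction.

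Sites for the microRNAs shown above were searched in the 3′-UTR of 1 GENCODE 29 coding transcript per gene, on the transcript strand, as the reverse complement of the seed. The site of miR-196a-5p and miR-196b-5p, ACTACCT, was found in 7 of 38 HOX 3′-UTRs (18.4%) and in 6.11% of 18710 3′-UTRs of all genes, with median lengths of 844.5 and 817 bases. The members were *HOXA5*, *HOXA7*, *HOXA9*, *HOXB6*, *HOXB7*, *HOXB13* and *HOXC8*. The letters ACTACCT and CTACCTC of let-7i-5p overlap, so 1 stretch can hold both. *HOXB8*, whose pairing with miR-196a is a textbook case of near-complete complementarity in animals, is printed below with capitals for the bases that pair, at chr17:48612770-48612791 on the reverse strand. There 21 of 22 bases were complementary and the remaining one formed a G:U pair. The *HOXB6* site (chr17:48595934-48595955, reverse strand) and the *HOXA3* site for miR-10a-5p (chr7:27107608-27107629, reverse strand) follow, with the seed match in capitals.
HOXB8, miR-196a-5p: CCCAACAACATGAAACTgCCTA
HOXB6, miR-196a-5p: tggaaggagcacatACTACCTa
HOXA3, miR-10a-5p: ctctttgatcagaaACAGGGTa

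*HOXB6*, which carries the site, was upregulated, and *HOXB8*, with the near-complete match, had 2.24, 2.22 and 2.004 RPKM against 2.42, 1.74 and 2.15 in control (log2 fold change 0.04, 95% interval -0.26 to 0.34). The other 6 members with an ACTACCT site had log2 fold changes of -0.13 in *HOXA5*, -0.33 in *HOXA7*, 0.15 in *HOXA9*, 0.00 in *HOXB7*, -0.24 in *HOXB13* and -0.27 in *HOXC8*, none of them called. The miR-10a-5p site ACAGGGT was found in 3 members, among them *HOXA3* and *HOXB3* (7.89% of HOX and 10.7% of all 3′-UTRs), and the miR-615-3p site GGCTCGG in *HOXB4* and *HOXC6* (5.26% and 2.26%). The let-7i-5p site CTACCTC was found in *HOXB4*, *HOXB13*, *HOXC11* and *HOXD1* (10.5% and 8.34%). *HOXC11* and *HOXB13* among them had fold changes of opposite sign, and the other 2 were not tested. *HOXA9*, described above, and *HOXD1* are in both prediction databases that the study used for let-7i-5p. A match of letters is not a measured site.

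The noncoding RNAs of the clusters were counted from a list of antisense, long noncoding and microRNA rows. Of 25 named, 22 had a row and 19 were tested. *HOXB-AS3* and *HOXA-AS2* rose, beside 5.62% of all tested genes higher, and limma called 0 lower (1 at an unadjusted p under 0.05, and 0 with limma voom on the recovered reads). The median log2 fold change was 0.12. *HOTAIR*, the *HOXC* RNA known for binding Polycomb complexes, had 9.40, 10.8 and 11.2 RPKM against 9.90, 9.58 and 8.91 in control, which overlapped. *HOTTIP*, transcribed beyond *HOXA13*, had 5.97, 5.94 and 6.21 RPKM against 5.45, 5.78 and 5.44, with no overlap (adjusted p = 0.13 by limma). The microRNA precursor rows held few reads, with 67 and 97 in all for *MIR10B* and 1 and 0 for *MIR10A*, and an mRNA library does not measure mature microRNAs.

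Genes flanking the clusters were counted in the same way. Of 25 tested neighbours, 2 rose and 1 fell, near the 5.62% higher and 7.36% lower of all tested genes, with a median log2 fold change of -0.04. *CBX5*, which encodes a heterochromatin protein and lies beside *HOXC*, had 22.1, 21.3 and 20.7 RPKM against 18.4, 19.0 and 18.4 in control (log2 fold change 0.20, adjusted p = 0.019 by limma). *ATP5G1*, a mitochondrial ATP synthase subunit beyond *HOXB13*, rose by 0.16 on the log2 scale. *CALCOCO2*, an autophagy receptor on the same side, had 10.4, 11.7 and 10.99 RPKM against 15.8, 13.9 and 13.7 (log2 fold change -0.39, adjusted p = 0.019 by limma). *PRAC1*, between *HOXB9* and *HOXB13*, had 16.5, 17.8 and 14.5 RPKM against 13.9, 11.7 and 13.8, with no overlap and an adjusted p of 0.089 by limma. *EVX1* and *EVX2*, the homeobox genes next to *HOXA13* and *HOXD13*, were at 0.264 and 0.358 RPKM in the control means with overlapping groups.

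HOX proteins bind DNA with cofactors of the PBX, MEIS and PKNOX families, and 9 of these were tested, of which 1 rose and 1 fell (beside 5.62% and 7.36% of all tested genes). *PBX4* rose, with 5.29, 5.48 and 5.66 RPKM against 4.17, 3.96 and 4.27 in control (log2 fold change 0.40, adjusted p = 0.0067 by limma). *PKNOX2* fell, with 0.711, 0.689 and 0.917 RPKM against 1.25, 1.16 and 1.19 (log2 fold change -0.58, adjusted p = 0.030 by limma). *PBX3* at 2.51 against 3.18 RPKM did not overlap between groups, with an adjusted p of 0.058 by limma. *PBX2*, the most abundant of them, was at 18.2 and 18.3 RPKM.

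Polycomb complexes repress HOX clusters. Of 30 of their genes tested, 6 fell, beside 7.36% of all genes, and limma called 0 higher (0 at an unadjusted p under 0.05, and 0 with limma voom), with 25 of the 30 fold changes below 0 and a median of -0.10 beside -0.04 over all tested genes. *EZH2*, the methyltransferase of Polycomb repressive complex 2, had 35.2, 35.6 and 36.0 RPKM against 46.3, 44.9 and 42.4 in control (log2 fold change -0.32, adjusted p = 0.0057 by limma). *JARID2*, *PHC1*, *RING1* and *PCGF1* fell by 0.26, 0.25, 0.21 and 0.18 on the log2 scale. The other core subunits *SUZ12* and *EED* were at 9.46 against 9.85 and 4.74 against 4.71 RPKM, which overlapped. Of 14 Trithorax and related genes, 3 fell, beside 7.36% of all tested genes. These were *KMT2C* by 0.36, *KMT2B* by 0.23 and *DOT1L* by 0.22 on the log2 scale. Limma called 0 of them higher (0 at an unadjusted p under 0.05, and 0 with limma voom). Of all tested genes at a mean RPKM of 1 or more, 17.3% were called in either direction. The share called lower alone was not counted at that level. The called Polycomb and Trithorax genes were at that level, and no set test was made. *KMT2A*, the methyltransferase that maintains HOX expression, had 3.79, 3.55 and 3.85 RPKM against 4.16, 4.40 and 4.20, with no overlap and an adjusted p of 0.068 by limma. The Trithorax median was -0.18, with 12 of 14 fold changes below 0. Median-ratio scaling moves the median of all tested genes from -0.04 to -0.00 and the split of all calls from 1310 higher and 1715 lower to 1696 higher and 1331 lower, and leaves 3 Polycomb genes called. With 1 library left out, *EZH2* stayed called in every such fit, and the count was 2 without HGC27-FN1 3′-UTR replicate 1, replicate 2 or control replicate 2, 3 without HGC27-FN1 3′-UTR replicate 3 or control replicate 1, and 4 without control replicate 3. *KMT2C* stayed called in every such fit too, and was alone among the Trithorax genes without HGC27-FN1 3′-UTR replicate 1 or control replicate 2.

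**Figure D4:**
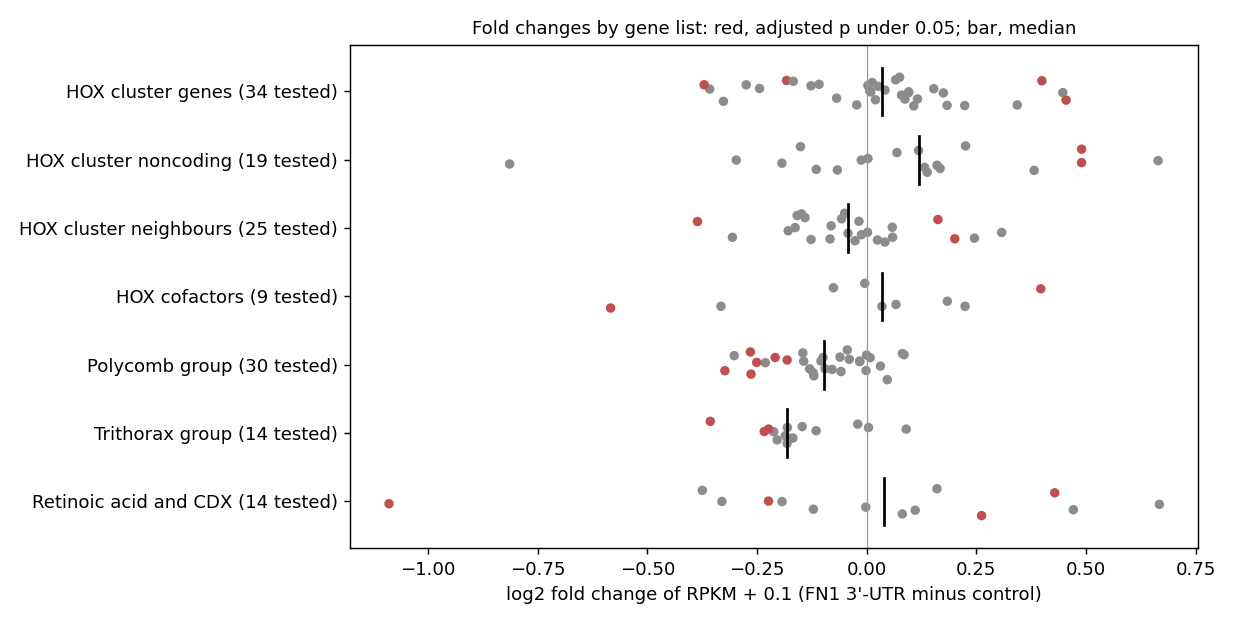
Log2 fold changes of RPKM + 0.1 (FN1 3′-UTR minus control) for the tested genes of each list, 1 point per gene, red where the adjusted p was under 0.05, with a bar at the list median. The HOX genes spread around 0 with a median of 0.03, and the Polycomb and Trithorax lists have medians of -0.10 and -0.18.

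Retinoic acid and CDX factors set HOX expression in the embryo, and 14 of 21 listed genes were tested, 2 of which rose and 2 fell (beside 5.62% higher and 7.36% lower of all tested genes). These counts are small and no set test was made. *CRABP2*, which carries retinoic acid to its receptors, had 405, 389 and 392 RPKM against 325, 321 and 343 in control (log2 fold change 0.26, adjusted p = 0.0095 by limma). *RDH10*, an enzyme of retinal synthesis, had 3.69, 3.44 and 3.28 RPKM against 2.65, 2.52 and 2.48 (log2 fold change 0.43, adjusted p = 0.011 by limma). *DHRS3*, which reduces retinal back to retinol, had 0.483, 0.364 and 0.451 RPKM against 0.929, 1.13 and 1.03 (log2 fold change -1.09, adjusted p = 0.0067 by limma). *RXRB*, a receptor partner, fell by 0.22 on the log2 scale. *CYP26A1*, the retinoic acid degrading enzyme, was at 0.886 against 0.610 RPKM (adjusted p = 0.059 by limma), and *CDX2* at 1.54 against 1.69 RPKM overlapped. *HOXB2*, a 3′ member that retinoic acid is known to induce, stayed under the 3-read floor, as given above. Other 3′ members moved in both directions, with *HOXA3* called higher and *HOXD4* called lower. *HOXB4* and *HOXD1* had too few reads to be tested. A response of the HOX genes to retinoic acid was not tested.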

How the data were processed

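Strand-specific mRNA libraries of 3 HGC27-FN1 3′-UTR and 3 HGC27-control samples were sequenced, and the authors deposited RPKM per gene, 1 table per library. The submitters' processing notes name Trimmomatic 0.36, STAR 2.5.3a, featureCounts, Subread 1.5.1 and GRCh38, with no role given. The annotation release and counting strand are not given in the sources used here. HOX members and all gene lists were chosen with earlier results of these data known. Whole reads were recovered from RPKM and gene length, with the value of 1 read inferred within each library. Genes reaching 0.1 RPKM in at least 3 of the libraries were fitted with limma 3.58.1 in R 4.3.3 on log2(RPKM + 0.1), with group as the only term and a trended empirical Bayes prior, two-sided, with Benjamini-Hochberg adjustment over all 23299 genes. The fit was tested on simulated data. Exon sharing was computed from the exon coordinates deposited with the RPKM values. The 3′-UTRs and homeobox stretches were read from GENCODE 29. The alternatives were the pseudocount, the filter, scaling, limma voom on recovered reads, a replicate block, the fold threshold and each library left out in turn. Members named with values in each library were those called, the highest of each cluster and those beside steps of over 4-fold, and from other lists up to 6 called genes. Others named with values were chosen after their values were seen. Further software was scipy 1.17.1, pandas 2.3.3 and numpy 2.4.6 in Python 3.11.15, with matplotlib 3.10.9 for plots. Some of the results the rule names are not reported here.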

Additional observations from a re-analysis of the deposited data

How the results depend on the processing

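*HOXB6* was called in all 13 alternative fits, *HOXA3* and *HOXD4* in 5 each and *HOXB9* in 3, and none of these 4 changed direction. The number of members higher, 2 as reported, was 3 with median-ratio scaling (*HOXC10* added), 3 with limma voom (*HOXB3* added), 1 with no filter on low values, 1 with the replicate block, 1 without any single library (range 1 to 1), 0 at the fold threshold (log2 size above 1, unadjusted p) and 0 without members sharing over 10% of exon bases. The number lower, also 2, was 2 with voom (*HOXB13* in place of *HOXD4*), 1 with a pseudocount of 0.01, 0 with no filter, 1 with median-ratio scaling, 0 with the replicate block, 0 to 1 with 1 library left out, 0 at the fold threshold and 1 without members sharing bases. The cause was not tested, except that the fits with a library or with members left out hold fewer of these. The replicate numbers shared by the groups were not used as pairs in the main fit. Deviations of same-numbered libraries from their group means correlated at 0.0024, 0.021 and 0.010. Such values cannot show whether same-numbered libraries were prepared together. With the block, 1162 genes were called in place of 3025, and 2363 with no filter, 5108 with limma voom, and 971 to 1880 with 1 library left out.

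The summed ratio of *HOXA* (1.06) was 1.08 with median-ratio scaling and 1.03 as a geometric mean, that of *HOXB* (0.986) was 1.01 and 1.07, and that of *HOXC* (1.03) was 1.05 and 1.005, and 0.988 without *HOXC10*. Cofactors higher were 2 with median-ratio scaling, 3 with voom and 0 at the fold threshold. Cofactors lower were 0 with no filter, 2 with voom, 0 with the block, 0 at the threshold and 0 to 1 with a library left out. In place of 6, Polycomb genes lower were 3 with median-ratio scaling, 2 with the block, 0 at the threshold and 2 to 4 with a library left out. Trithorax genes lower were 6 at a mean RPKM of 1 or more, 9 with voom, 1 with the block, 0 at the threshold and 1 to 3 with a library left out. Retinoic acid and CDX genes higher were 4 with voom, 0 at the threshold and 1 to 2 with a library left out, and those lower were 1 at a mean RPKM of 1 or more, 4 with voom, 1 with the block, 1 at the threshold and 1 to 3 with a library left out. Neighbours higher were 0 with the block, 0 at the threshold and 0 to 1 with a library left out, and those lower were 4 with voom, 0 with the block, 0 at the threshold and 0 to 1 with a library left out. Noncoding RNAs higher were 1 with no filter, 0 with the block, 0 at the threshold and 1 to 1 with a library left out. Members with few reads, such as *HOXD12* with 4 to 14 per library, are limited by depth.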
